A study of Homo sapiens with 8 samples.

Results

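Entry into and exit from mitosis depend on a set of genes whose mRNAs accumulate in the G2 phase and are read out together. The 40 examined here are the cyclins and CDC25 phosphatases around CDK1, the mitotic kinases, the spindle checkpoint, the kinetochore, the spindle, the cytokinesis machinery and a few chromosome and proliferation genes. They were taken as a named list and looked up by symbol in both deposited tables, where all 40 are among the 57884 genes listed. All 40 also passed the filter on low values, among 17994 genes tested. The libraries came from hTERT-RPE1, a line of human retinal pigment epithelium made immortal with telomerase. Cells labelled ATF3(-/-), called labelled knockout below, and cells labelled wildtype were either kept for 8 h without serine and glycine or labelled 0 h and in complete medium. The protocol, which is the same for all 8 libraries, gives 2 days in complete medium and then a wash before the change of medium. Whether the 0 h cells were washed the sources used here do not give. Absence of serine and glycine and the 8 h that passed cannot be told apart. Each of the 4 groups has 2 libraries, 1 from each of 2 experiments done a week apart. How the ATF3(-/-) cells were made, and whether they are 1 clone, the sources used here do not give.

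ATF3 is a stress-induced transcription factor and was the gene the labels say was removed. Its mRNA was present in every library. In batch 1 it stood at 4.45 FPKM in the labelled knockout and 6.46 FPKM in wild type without serine and glycine, and at 3.38 FPKM in the labelled knockout and 3.47 FPKM in wild type in complete medium. In batch 2 it stood at 57.3 FPKM in the labelled knockout and 18.01 FPKM in wild type without serine and glycine, and at 20.8 FPKM in the labelled knockout and 3.65 FPKM in wild type in complete medium. The mRNA level does not separate the labels in batch 1 and is higher in the labelled knockout in batch 2. The sources used here do not give where the deletion lies, so mRNA from outside it would still be counted. All directions below are those of libraries as labelled.

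Cell type markers differ between the batches under both labels. SPARC was at 343 to 429 FPKM in the 4 libraries of batch 1 and at 0.090 to 1.66 FPKM in those of batch 2, and KRT19 at 0.74 FPKM or less in batch 1 and at 216 to 375 FPKM in batch 2. The tables were normalized separately, and whether both batches hold the same cells was not tested. Within batch 2 the 2 libraries labelled knockout also stand apart from wild type. The 6 simple epithelium markers, all detected, summed to 774 and 914 FPKM there without serine and glycine and in complete medium, against 304 and 434 FPKM in the wild-type libraries of that batch. In batch 1 the sums were 225 and 202 FPKM in the labelled knockout and 310 and 343 FPKM in wild type. The 6 mesenchymal markers summed to 187 and 181 FPKM in the batch 2 labelled knockout against 756 and 686 FPKM in wild type, and to 1746 and 1559 FPKM in the batch 1 labelled knockout against 1277 and 1225 FPKM in wild type. VIM was the largest part of each sum. COL1A1 ran against the sum in batch 2, at 1.80 and 2.53 FPKM in the labelled knockout and 0.97 and 1.99 FPKM in wild type. FN1 differed little there, at 56.7 and 38.3 FPKM against 58.7 and 44.5 FPKM. In batch 1 FN1 ran against the sum, at 26.1 and 20.5 FPKM against 36.1 and 34.5 FPKM. The adhesion protein CDH1 was at 56.2 and 60.0 FPKM in the batch 2 labelled knockout, and at 1.23 FPKM or less in the other 6 libraries. Of 8 retinal pigment epithelium markers, RPE65, BEST1, RLBP1, TYR, PMEL, OTX2 and TTR missed the filter and RLBP1, TYR, OTX2 and TTR were listed at 0 in most libraries. MITF was at 1.96 to 6.55 FPKM. TERT was listed at 0 in 5 of the 8 libraries and CDH5 and VWF were at or near 0. The immune markers PTPRC and CD3E were also at or near 0, while CD68 was at 1.68 to 15.1 FPKM. The part of these marker shifts in the results below was not tested, and each result is therefore given batch by batch.

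In a dividing cell, CDK1 bound to a B-type cyclin drives entry into mitosis. The checkpoint proteins then hold the cell until every kinetochore is attached to the spindle, and the anaphase-promoting complex, activated by CDC20, degrades cyclin B and securin to let the chromosomes part. Many of the genes are repressed in resting and early cycle cells by the DREAM complex, which binds an element called CHR, and are switched on by B-MYB and FOXM1. CCAAT boxes bound by NF-Y often lie next to that element.

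That element can be read directly from the promoters. RefSeq promoters (build GRCh38.p14, 250 bases before to 50 after each start) were found for 33 of the 40 genes, in 43 windows. AURKA, BIRC5, BUB3, TTK, UBE2C, TPX2 and FOXM1 were not matched. The stretches below show how the elements are arranged in genes described later. Capitals mark CHR, searched as TTTGAA or TTCGAA, and the CCAAT box, searched as CCAAT, each on both strands (TTCAAA and ATTGG on the other). Each is written along the gene's own strand.
CCNB2, chr15:59104896-59105132, plus strand: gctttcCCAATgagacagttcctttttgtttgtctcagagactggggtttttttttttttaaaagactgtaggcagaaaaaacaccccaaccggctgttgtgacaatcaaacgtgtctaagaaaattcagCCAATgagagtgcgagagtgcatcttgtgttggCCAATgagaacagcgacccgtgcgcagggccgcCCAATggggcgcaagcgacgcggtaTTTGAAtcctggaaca
PLK1, chr16:23678806-23678875, plus strand: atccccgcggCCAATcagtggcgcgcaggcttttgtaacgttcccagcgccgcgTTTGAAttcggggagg
KIF4A, chrX:70290036-70290085, plus strand: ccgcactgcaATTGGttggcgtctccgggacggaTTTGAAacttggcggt
MKI67, chr10:128126433-128126531, minus strand: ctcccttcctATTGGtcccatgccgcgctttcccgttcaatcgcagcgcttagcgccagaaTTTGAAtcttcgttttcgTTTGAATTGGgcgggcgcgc
BUB1B, chr15:40161036-40161061, plus strand: gaccgttaaaTTTGAAacttggcggc
NDC80, chr18:2571544-2571575, plus strand: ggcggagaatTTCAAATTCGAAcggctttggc
CCNB1, chr5:69167053-69167109, plus strand: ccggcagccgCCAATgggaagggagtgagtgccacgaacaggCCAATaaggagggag

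CCNB2 has 4 CCAAT boxes upstream of 1 CHR, which begins 29 bases before the start. PLK1 and KIF4A each carry 1 box and 1 CHR in the same order. In MKI67 a CCAAT box lies on each side of 2 CHR matches. BUB1B has a CHR and no box in its window, NDC80 has 2 CHR matches side by side at its start, and CCNB1 has 2 boxes and no CHR. A CHR match was in 67.4% of the member windows and in 16.4% of the 35116 windows of all genes. For the CCAAT box the shares were 74.4% and 34.6%, and for both in one window 55.8% and 6.4%. A forkhead core (TGTTTA) was in 9.3% of member windows and 12.3% of all windows, and an E2F match (TTCCCGC) in 9.3% and 6.6%. In MKI67 the downstream CHR and the box after it share 1 base. These are matches of letters on either strand, given as a description.

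FPKM counts fragments per length of transcript and total of mapped fragments, so it can be compared between genes within a library. The median level of the 40 genes was 42.0 FPKM in the labelled knockout and 51.2 FPKM in wild type in batch 1 without serine and glycine, and 50.5 FPKM in the labelled knockout and 61.3 FPKM in wild type in complete medium. In batch 2 it was 19.7 FPKM in the labelled knockout and 29.2 FPKM in wild type without serine and glycine, and 19.4 FPKM in the labelled knockout and 26.9 FPKM in wild type in complete medium. In each of these 4 pairs the labelled knockout had the lower median. The tables were normalized separately, so the step between batches is not a measured change. The lowest member was MKI67 in 5 libraries, CDC25C in 2 and NDC80 in 1, and the highest was PTTG1 or CCNB1 in batch 1 and UBE2C in batch 2. The locus of 25 of the 40 holds another listed gene (4 for BUB1B, 7 for KIF23, 10 for FOXM1), and as the strand of counting is not given, reads of overlapping genes may be split or shared.

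Most of the mitotic genes were lower in the labelled knockout, in both batches and both media. All differences are on the log2(FPKM + 1) scale, labelled knockout minus wild type. Of the 40 genes, 30 were lower in all 4 pairs (75%), against 13.2% of all genes tested, and 0 were higher in all 4. Both labelled knockout libraries were below both wild-type libraries for 20 members in batch 1 (22.8% of all genes), for 31 in batch 2 (25.9% of all genes) and for 18 in both (45%, against 6.76% of all genes). In batch 1 alone 32 were lower in both media (34.8% of all genes) and in batch 2 alone 35 (34.9% of all genes). The median difference was −0.17 in complete medium and −0.30 without serine and glycine in batch 1, and −0.35 and −0.58 in batch 2, while the median of all genes tested lay between −0.048 and 0 in these pairs. In bulk RNA, fewer cells in G2 and mitosis and less of these mRNAs per cell cannot be told apart.

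No single member passed the test for the genotype label. With the batch as a block, limma called 0 of the 40 genes with both media averaged, beside 0.0445% of all genes, and the smallest adjusted p among them was 0.3849. It also called 0 in complete medium and 0 without serine and glycine, beside 0.0333% and 0.05% of all genes. At an unadjusted p under 0.05, 19 members were lower and 0 higher with both media averaged, against 1252 lower and 713 higher among all 17994 genes. The median of the 40 fitted differences was −0.36, against −0.027 over all genes. It was −0.28 in complete medium and −0.42 without serine and glycine, against −0.017 and −0.041 over all genes. Without the batch 2 labelled knockout library in complete medium, the complete-medium median was −0.12, and without the batch 2 wild-type library in serine/glycine-free medium that without serine and glycine was −0.24. The smallest p-values belonged to BUB3 (−0.50 ± 0.17) in complete medium, and to MAD2L1 (−0.67 ± 0.15) and BUB1B (−0.75 ± 0.20) without serine and glycine, with limma adjusted p of 0.8572 in complete medium and 0.8012 without serine and glycine. For BUB3 the value was −0.33 without the batch 1 wild-type library in complete medium.

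**Figure D1:**
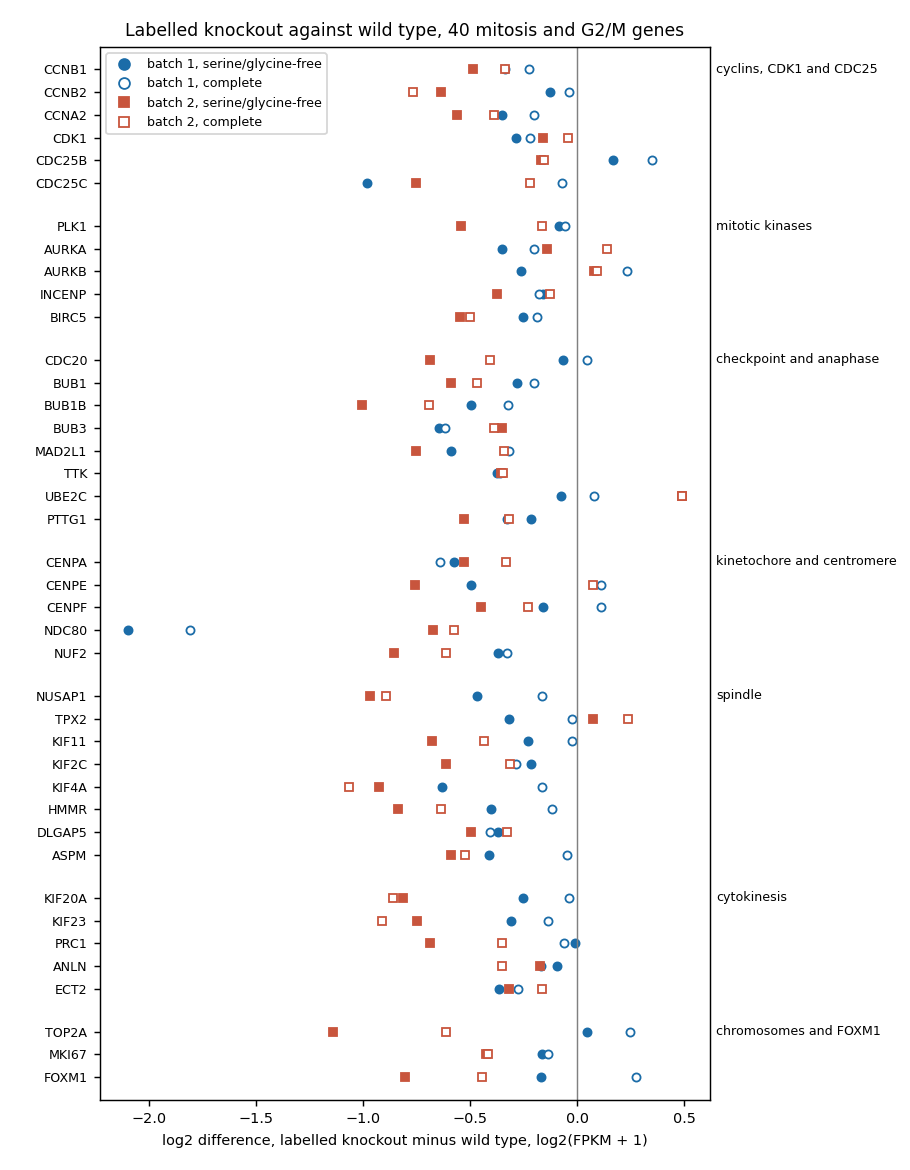
Log2 difference in log2(FPKM + 1), labelled knockout minus wild type (x axis), for each of the 40 genes by role (rows); circles are batch 1 and squares batch 2, filled without serine and glycine and open in complete medium, 1 pair of libraries per point. Points lie left of 0 in all 4 pairs for 30 genes, with NDC80 farthest left in batch 1 and UBE2C farthest right in batch 2.

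Of the 8 checkpoint and anaphase genes, 6 were lower in the labelled knockout without exception. BUB1, BUB1B, BUB3, MAD2L1, TTK and the securin gene PTTG1 were lower in all 4 pairs, as were 13.2% of all genes tested. In each batch both labelled knockout libraries were below both wild-type libraries for these 6, and for 6.76% of all genes. MAD2L1, whose protein binds CDC20 while kinetochores are unattached, stood in batch 1 at 50.8 FPKM in the labelled knockout and 77.0 FPKM in wild type without serine and glycine, and at 49.1 FPKM in the labelled knockout and 61.5 FPKM in wild type in complete medium. Batch 2 gave 25.4 FPKM in the labelled knockout and 43.5 FPKM in wild type without serine and glycine, and 29.6 FPKM in the labelled knockout and 37.8 FPKM in wild type in complete medium. The groups did not overlap in either batch. Its fitted difference was −0.50 ± 0.11 (SE) with both media averaged, and it had the smallest unadjusted p of the 40 genes (0.003341; limma adjusted p = 0.3849).

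BUB1B encodes BUBR1, a pseudokinase of the complex that holds CDC20. In batch 1 it was at 22.5 FPKM in the labelled knockout and 32.1 FPKM in wild type without serine and glycine, and at 28.7 FPKM in the labelled knockout and 36.2 FPKM in wild type in complete medium. Its batch 2 levels were 12.9 FPKM in the labelled knockout and 26.9 FPKM in wild type without serine and glycine, and 18.6 FPKM in the labelled knockout and 30.8 FPKM in wild type in complete medium. The labelled knockout was lower in each pair, with log2 differences of −0.32 to −1.01, and the fitted difference was −0.63 ± 0.14 (limma adjusted p = 0.3849). BUB3, the adaptor that carries BUB1 and BUBR1 to kinetochores, differed by −0.50 ± 0.12. In batch 1 its neighbours within 5 Mb on chromosome 10 were also lower, 29 of 30, with a median of −0.55 beside −0.63 for BUB3. In batch 2 their median was −0.021 beside −0.37. BUB1, the kinase that docks the checkpoint at kinetochores, differed by −0.39, PTTG1 by −0.35, and TTK, the kinase that starts the checkpoint signal, by −0.35 to −0.38 in all 4 pairs. CDC20 was lower in 3 of the 4 pairs, with 131 FPKM in the labelled knockout and 127 FPKM in wild type in the exception, batch 1 in complete medium.

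UBE2C, the ubiquitin-conjugating enzyme of the anaphase-promoting complex, ran the other way in batch 2. There it was at 215 FPKM in the labelled knockout and 153 FPKM in wild type without serine and glycine, and at 241 FPKM in the labelled knockout and 171 FPKM in wild type in complete medium. In batch 1 it was at 124 FPKM in the labelled knockout and 130 FPKM in wild type without serine and glycine, and at 142 FPKM in the labelled knockout and 134 FPKM in wild type in complete medium. The batch 2 groups did not overlap and the batch 1 groups did. In batch 2 both labelled knockout libraries were above both of wild type for UBE2C and TPX2 (5%), against 23.3% of all genes. UBE2C had the highest genotype difference of the 40, 0.25 ± 0.14 (limma adjusted p = 0.5172), and the difference was 0.49 larger in batch 2 than in batch 1 (SE 0.12, limma adjusted p = 0.08862).

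**Figure D2:**
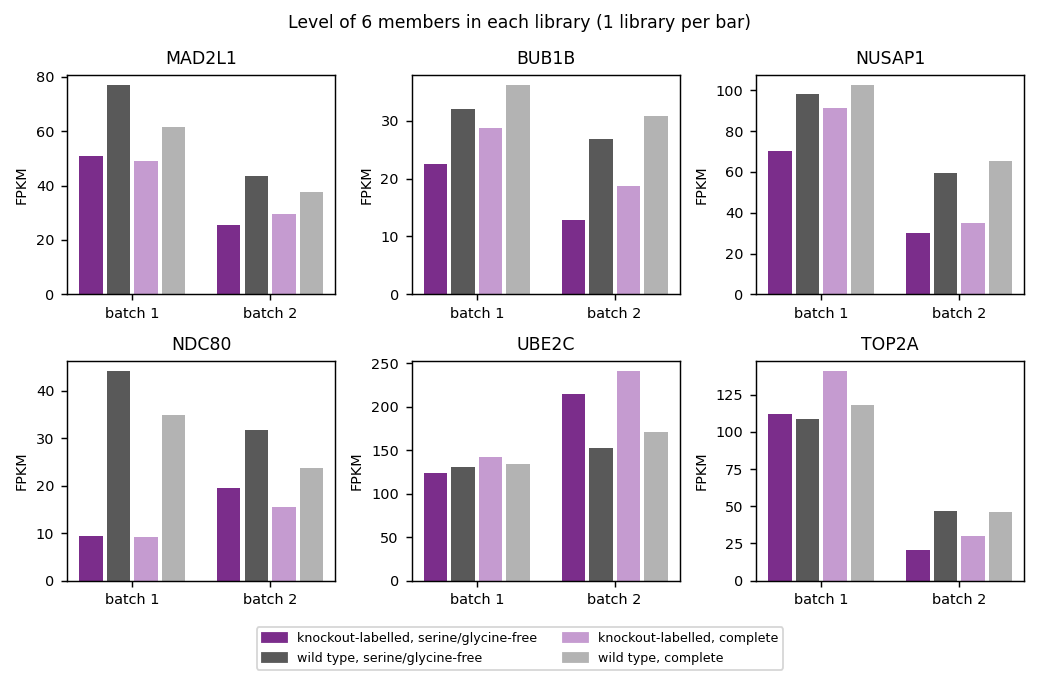
FPKM (y axis) of 6 genes in each library, by batch (x axis), 1 bar per library with no replicate within a bar; dark and light purple are the labelled knockout, dark and light grey wild type. MAD2L1, BUB1B, NUSAP1 and NDC80 are lower in the labelled knockout in every pair, while UBE2C is higher in batch 2 and TOP2A is lower only in batch 2.

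At the kinetochore, NDC80 had the largest genotype difference and it depended on the batch. NDC80 and NUF2 are subunits of the complex that grips microtubule ends. In batch 1 NDC80 stood at 9.52 FPKM in the labelled knockout and 44.1 FPKM in wild type without serine and glycine, and at 9.26 FPKM in the labelled knockout and 35.0 FPKM in wild type in complete medium. Batch 2 gave 19.6 FPKM in the labelled knockout and 31.8 FPKM in wild type without serine and glycine, and 15.5 FPKM in the labelled knockout and 23.7 FPKM in wild type in complete medium. The labelled knockout was below wild type in both batches and much further below in batch 1. Averaged over media and batches the difference was −1.29 ± 0.30 (limma adjusted p = 0.3849). The genotype difference in batch 2 minus that in batch 1 was 1.33 ± 0.19, and this passed the test (limma adjusted p = 0.02656). That fit takes the 2 media of a batch as replicates of a label, so its p-value does not measure the spread between experiments. NDC80 is the only one of the 40 genes called in that comparison, which called 3.91% of all genes. The call ends when any 1 of the 8 libraries is left out or when no filter on low values is used, with values from 1.17 to 1.49 and adjusted p up to 0.1315.

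The genes around NDC80 were low in the same libraries. Chromosomes were looked at after the values were seen, on protein-coding genes with a mean FPKM of at least 5, with both media averaged within a batch. NDC80 lies at chr18:2571510-2616634 (hg19). Its 14 neighbours within 5 Mb differed by a median of −1.48 in batch 1, with 14 of 14 lower, and of −0.21 in batch 2, with 10 of 14 lower, beside −1.96 and −0.63 for NDC80 itself. Over the first 11 Mb of chromosome 18, 25 of 25 genes were lower in batch 1, with a median of −1.37, while the other 104 genes of the chromosome had a median of −0.12. The part of this stretch in the NDC80 result was not tested.

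CENPA, the histone H3 variant that marks the centromere, was at 34.2 FPKM in the labelled knockout and 51.4 FPKM in wild type without serine and glycine in batch 1, and at 33.9 FPKM in the labelled knockout and 53.4 FPKM in wild type in complete medium. Its batch 2 levels were 19.5 FPKM in the labelled knockout and 28.5 FPKM in wild type without serine and glycine, and 17.4 FPKM in the labelled knockout and 22.2 FPKM in wild type in complete medium. The groups did not overlap in either batch, and the fitted difference was −0.52 ± 0.12 (limma adjusted p = 0.3849). Its 47 neighbours were also lower in batch 1, with a median of −0.45 against −0.61 for CENPA, but not in batch 2, with −0.045 against −0.43. NUF2 was lower in all 4 pairs and differed by −0.54 ± 0.14 (limma adjusted p = 0.3849). The motor CENPE was lower without serine and glycine, by −0.50 in batch 1 and −0.76 in batch 2, and slightly higher in complete medium, by 0.11 and 0.074. CENPF, a large protein of the outer kinetochore, was lower in 3 pairs and higher in the batch 1 complete-medium pair (49.0 FPKM in the labelled knockout and 45.3 FPKM in wild type).

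**Figure D3:**
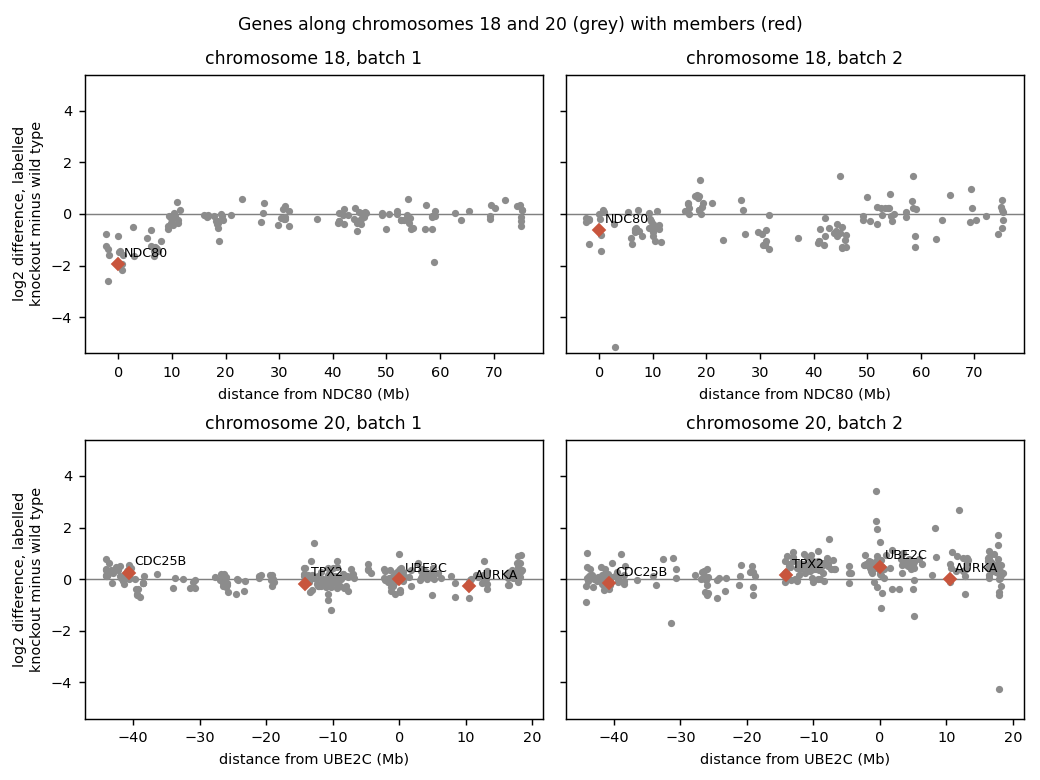
Log2 difference, labelled knockout minus wild type averaged over media (y axis), of protein-coding genes along chromosomes 18 and 20 by distance in Mb from NDC80 or UBE2C (x axis), with batch 1 on the left and batch 2 on the right; grey points are genes and red diamonds the mitotic genes. All 25 genes at the NDC80 end of chromosome 18 are below 0 in batch 1, and 22 of 178 genes on chromosome 20 from 30 Mb are below 0 in batch 2.

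UBE2C, TPX2 and AURKA share a stretch that was high in the batch 2 labelled knockout. On chromosome 20 from 30 Mb, 178 genes differed by a median of 0.47 in batch 2, where 22 were lower, and of 0.081 in batch 1, where 57 were lower. The neighbours within 5 Mb of UBE2C had a median of 0.52 in batch 2, against 0.49 for UBE2C. TPX2, which activates Aurora A on the spindle, differed by 0.16 against 0.44 for its neighbours, and AURKA, the centrosome kinase itself, by −0.0015 against 0.62. The part of this stretch in those values was not tested. A further 5 of the genes, CCNB2, BUB1B, NUSAP1, KIF23 and PRC1, lie on chromosome 15, whose 283 genes differed by a median of −0.30 in batch 2 and of −0.069 in batch 1. Within 5 Mb the neighbour medians in batch 2 were −0.48 for CCNB2, −0.42 for BUB1B, −0.42 for NUSAP1, −0.40 for KIF23 and 0.029 for PRC1. The genes themselves stood at −0.70, −0.85, −0.93, −0.83 and −0.52 in the same order.

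Most of the mitotic genes lay below the median of their own neighbours within 5 Mb, 31 of the 40 in batch 1 and 36 in batch 2. Of the 30 members with at least 20 neighbours, 22 were below it in batch 1, 28 in batch 2 and 21 in both. Among 7234 other protein-coding genes with at least 20 neighbours, 49.8% and 50% were below theirs in batch 1 and batch 2, and 25.1% in both. The median gap between a member and its neighbours was −0.14 in batch 1 and −0.37 in batch 2. MKI67 lay above its 18 neighbours in batch 1, at −0.15 against a median of −0.59 with all 18 lower, and below them in batch 2, at −0.42 against −0.090. The part of neighbouring genes in the genotype differences was not tested.

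**Figure D4:**
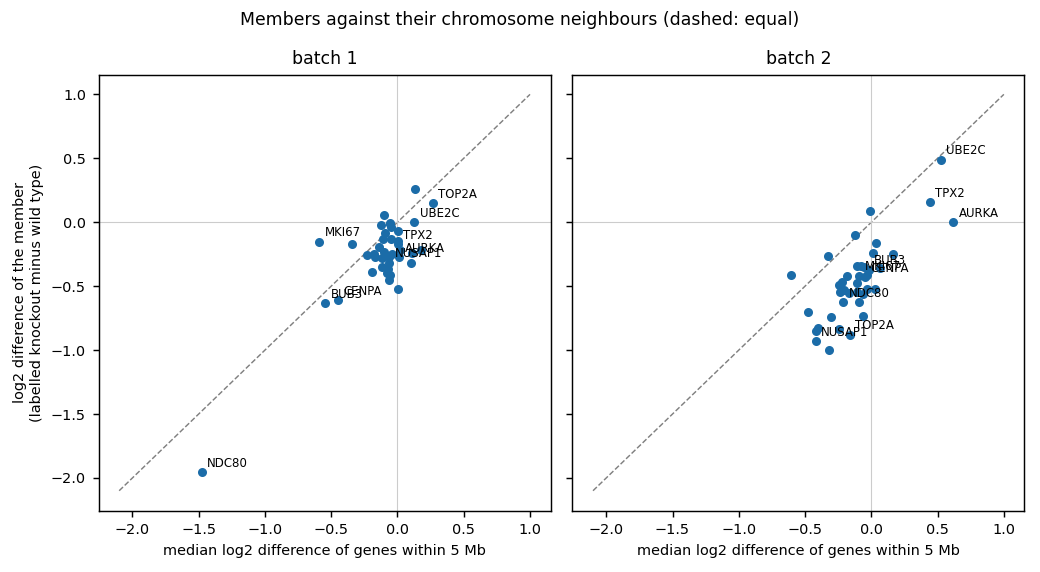
Log2 difference of each of the 40 genes, labelled knockout minus wild type averaged over media (y axis), against the median of protein-coding genes within 5 Mb (x axis), for batch 1 (left) and batch 2 (right); the dashed line marks equal values. Below the line lie 31 genes in batch 1 and 36 in batch 2. Genes with neighbours far from 0 include NDC80, MKI67, BUB3 and CENPA in batch 1 and CCNB1, CCNB2, UBE2C, TPX2 and AURKA in batch 2.

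Among the spindle genes, NUSAP1, KIF11, KIF2C, KIF4A, HMMR, DLGAP5 and ASPM were lower in all 4 pairs and TPX2 in 2. NUSAP1, which bundles microtubules near chromosomes, stood in batch 1 at 70.4 FPKM in the labelled knockout and 98.0 FPKM in wild type without serine and glycine, and at 91.3 FPKM in the labelled knockout and 103 FPKM in wild type in complete medium. Batch 2 gave 29.97 FPKM in the labelled knockout and 59.6 FPKM in wild type without serine and glycine, and 34.7 FPKM in the labelled knockout and 65.5 FPKM in wild type in complete medium. The genotype difference in batch 2 minus that in batch 1 was −0.61 ± 0.15 (limma adjusted p = 0.08848). KIF4A, a chromosome-bound kinesin, had the next largest averaged difference after NDC80, −0.70 ± 0.18 (limma adjusted p = 0.3849). Its batch 2 values were 6.65 FPKM in the labelled knockout and 13.5 FPKM in wild type without serine and glycine, and 7.49 FPKM in the labelled knockout and 16.8 FPKM in wild type in complete medium. KIF11, the motor that pushes spindle poles apart, and KIF2C, a microtubule depolymerizer, differed by −0.34 and −0.36 with both media averaged. HMMR, a microtubule-binding protein of the spindle poles, differed by −0.50, and ASPM, which acts at the poles and in spindle orientation, by −0.39.

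The cyclins, CDK1 and CDC25C were lower in the labelled knockout in all 4 pairs. CCNB1 in batch 1 was at 126 FPKM in the labelled knockout and 160 FPKM in wild type without serine and glycine, and at 149 FPKM in the labelled knockout and 175 FPKM in wild type in complete medium. Its batch 2 levels were 50.3 FPKM in the labelled knockout and 70.9 FPKM in wild type without serine and glycine, and 47.2 FPKM in the labelled knockout and 59.9 FPKM in wild type in complete medium. The groups did not overlap in either batch. Its 28 neighbours on chromosome 5 were lower too in batch 2, 24 of them, with a median of −0.61 beside −0.41 for CCNB1, and in batch 1 18 were lower, with −0.12 beside −0.28. The averaged differences were −0.35 for CCNB1, −0.39 for CCNB2, −0.37 for CCNA2 and −0.18 for CDK1. CDC25C, a phosphatase that switches CDK1 on, differed mainly without serine and glycine, by −0.98 in batch 1 and −0.75 in batch 2, against −0.070 and −0.22 in complete medium. CDC25B, the phosphatase that acts earlier, was higher in both media in batch 1 and lower in both in batch 2.

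Of the kinase group, PLK1, the chromosomal passenger subunit INCENP and survivin (BIRC5) were lower in all 4 pairs, AURKA in 3 and AURKB in 1. BIRC5 had the largest averaged difference of these, −0.37. Its batch 2 levels were 70.9 FPKM in the labelled knockout and 104 FPKM in wild type without serine and glycine, and 73.7 FPKM in the labelled knockout and 105 FPKM in wild type in complete medium. AURKB, the passenger complex kinase, had an averaged difference of 0.036 and its groups overlapped in both batches. The cytokinesis genes KIF20A, KIF23, PRC1, ANLN and ECT2 were all lower in all 4 pairs, with averaged differences of −0.20 (ANLN, an actin-binding scaffold of the cleavage furrow) to −0.53 (KIF23, a motor of the midzone). PRC1, which bundles midzone microtubules, and ECT2, the exchange factor that activates RHOA at the furrow, both differed by −0.28.

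TOP2A, which untangles chromosomes before they part, differed between the batches. In batch 2 it was at 20.6 FPKM in the labelled knockout and 46.6 FPKM in wild type without serine and glycine, and at 29.8 FPKM in the labelled knockout and 46.2 FPKM in wild type in complete medium. In batch 1 it was at 112 FPKM in the labelled knockout and 108 FPKM in wild type without serine and glycine, and at 141 FPKM in the labelled knockout and 118 FPKM in wild type in complete medium. The labelled knockout was lower in batch 2 and higher in batch 1, and the difference between batches, −1.03 ± 0.21, missed the threshold (limma adjusted p = 0.05785) and passes it when protein-coding genes alone are tested (0.0164), where 10.3% of all genes pass. CCNB2 had the next smallest p, with −0.62 ± 0.14 (limma adjusted p = 0.07637). Over the 40 genes the median difference between batches was −0.24, against 0.016 over all genes. It was −0.15 without the batch 1 labelled knockout library in complete medium and −0.12 without the batch 2 wild-type library in serine/glycine-free medium.

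By medium, fewer of the mitotic genes kept 1 direction in every pair. Differences here are serine/glycine-free minus complete. Of the 40 genes, 15 were lower without serine and glycine in all 4 pairs (37.5%, against 11.4% of all genes tested) and NDC80 was higher in all 4. In batch 1 the median was −0.28 in the labelled knockout and −0.10 in wild type, with 36 and 32 of 40 genes lower. In batch 2 it was −0.12 in the labelled knockout and 0.075 in wild type, with 27 and 16 lower. The wild-type median thus had opposite signs in the 2 batches. Of all 17994 genes tested, 8972 were lower in the labelled knockout and 8597 in wild type in batch 1. In batch 2 these counts were 7956 and 7717, and the batch 2 wild-type count of members is near that share. The all-gene medians were 0 and 0 in batch 1 and 0.001 and 0.013 in batch 2. Limma called 0 of the 40 with genotypes averaged, beside 0.133% of all genes, and 0 in the labelled knockout and 0 in wild type, beside 0.0167% and 0.0556%. At an unadjusted p under 0.05, 6 were lower and 0 higher with genotypes averaged, 4 lower in the labelled knockout and 2 lower in wild type. Those lower are 15%, 10% and 5% of the members, against 3.87%, 2.25% and 1.92% of all genes, and with genotypes averaged 6.16% of all genes were higher. The fitted medians were −0.11 with genotypes averaged, −0.16 in the labelled knockout and −0.058 in wild type, against 0.016, 0.0056 and 0.023 over all genes. Without the batch 1 wild-type library in serine/glycine-free medium the wild-type median was 0.071 and the averaged one −0.033. The averaged median was −0.18 without the batch 2 wild-type library in serine/glycine-free medium and −0.064 without the batch 1 labelled knockout library in complete medium. Leaving out the labelled knockout library in complete medium gave a labelled knockout median of −0.097 for that of batch 1 and −0.30 for that of batch 2.

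**Figure D5:**
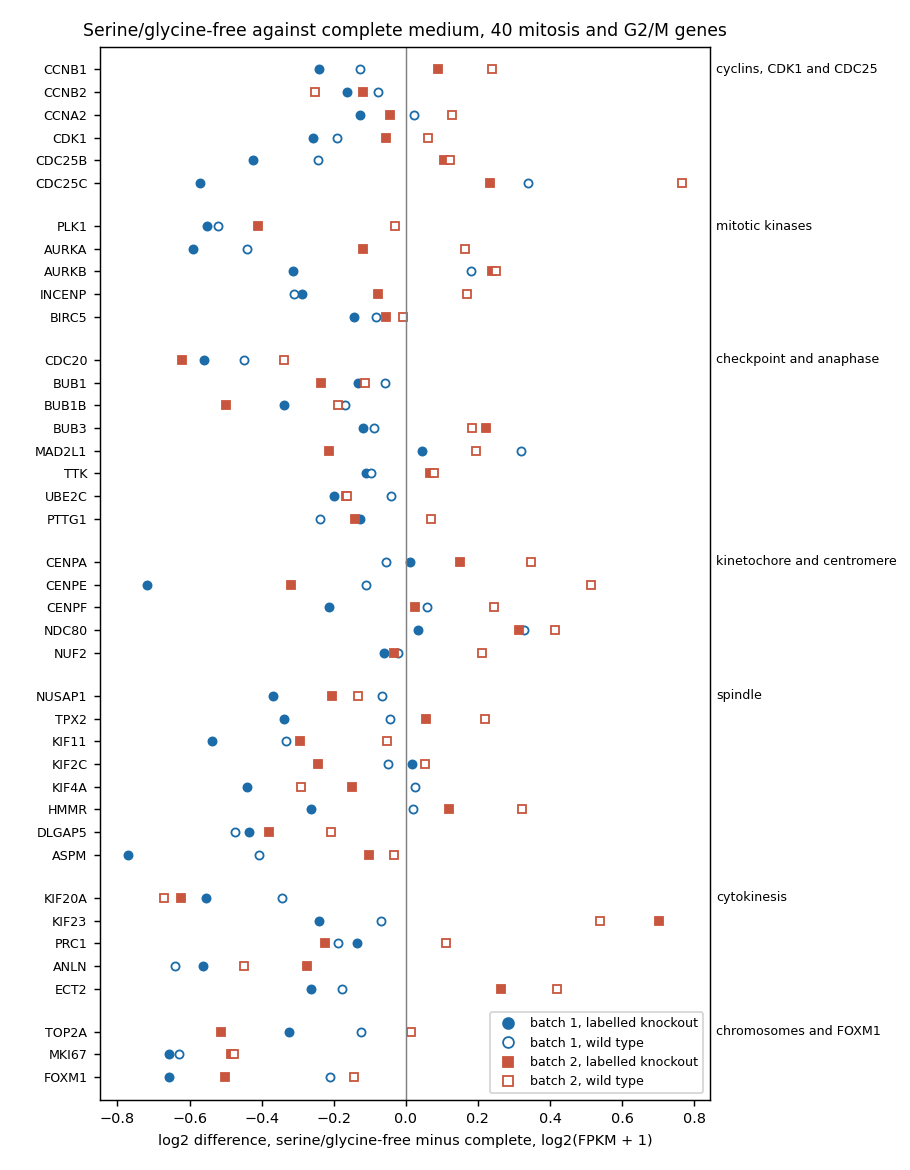
Log2 difference in log2(FPKM + 1), serine/glycine-free minus complete medium (x axis), for each of the 40 genes by role (rows); circles are batch 1 and squares batch 2, filled for the labelled knockout and open for wild type, 1 pair of libraries per point. Points lie left of 0 in all 4 pairs for 15 genes, among them ANLN, MKI67, KIF20A and CDC20.

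The genes lower without serine and glycine in every pair were CCNB2, PLK1, BIRC5, CDC20, BUB1, BUB1B, UBE2C, NUSAP1, KIF11, DLGAP5, ASPM, KIF20A, ANLN, MKI67 and FOXM1. ANLN in batch 1 was at 74.6 FPKM without serine and glycine and 111 FPKM in complete medium in the labelled knockout, and at 79.6 FPKM without and 125 FPKM in complete medium in wild type. In batch 2 it was at 41.1 FPKM without serine and glycine and 49.9 FPKM in complete medium in the labelled knockout, and at 46.5 FPKM without and 63.9 FPKM in complete medium in wild type. In both batches the 2 serine/glycine-free libraries were below the 2 complete-medium libraries, and the averaged difference was −0.48 ± 0.11 (limma adjusted p = 0.2845), the smallest p of the 40 genes. Such a separation in both batches held for ANLN and MKI67 alone (5%), near the 4.20% of all genes.

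MKI67, the Ki-67 protein that coats mitotic chromosomes and marks dividing cells, was at 6.72 FPKM without serine and glycine and 11.2 FPKM in complete medium in the batch 1 labelled knockout, and at 7.66 FPKM without and 12.4 FPKM in complete medium in wild type. In batch 2 it was at 3.56 FPKM without and 5.37 FPKM in complete medium in the labelled knockout, and at 5.11 FPKM without and 7.50 FPKM in complete medium in wild type. The averaged difference was −0.56 ± 0.15 (limma adjusted p = 0.3379). KIF20A, a motor of cytokinesis, differed by −0.55 ± 0.18, CDC20 by −0.49 ± 0.15 (limma adjusted p = 0.3676), DLGAP5, a spindle protein, by −0.37 ± 0.10 (limma adjusted p = 0.3540), and PLK1, the kinase that acts from mitotic entry to cytokinesis, by −0.38 ± 0.14. FOXM1, the transcription factor of the programme, differed by −0.38 ± 0.17 and was lower in each pair, with −0.66 and −0.50 in the labelled knockout and −0.21 and −0.14 in wild type, in batch 1 and batch 2.

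The genotype difference was more negative without serine and glycine for most of the 40 genes, but no gene passed a test of that. In 33 genes in batch 1 and 34 in batch 2 the genotype difference was more negative without serine and glycine than in complete medium, and in 28 in both batches. Over all genes tested the shares were 51.8% in batch 1, 50.3% in batch 2 and 25.8% in both. These 4 libraries per batch are shared between the differences compared. The interaction, the medium difference in the labelled knockout minus that in wild type, had a median of −0.14, against −0.020 over all genes, and of 0.015 without the batch 2 wild-type library in serine/glycine-free medium. Without the batch 1 labelled knockout library in complete medium it was −0.027, and without that of batch 2 −0.28. Without the batch 1 wild-type library in serine/glycine-free medium it was −0.30. Limma called 0 of the 40 for it, beside 0.0611% of all genes, and 0 had an unadjusted p under 0.05. The lowest values were −0.72 ± 0.37 for CDC25C and −0.72 ± 0.33 for CENPE (limma adjusted p = 1 for both). With 1 library left out CDC25C ranged from −1.002 to −0.44, without the batch 2 and without the batch 1 labelled knockout library in serine/glycine-free medium, and CENPE from −0.98 to −0.46, without the batch 1 and without the batch 2 wild-type library in that medium. CENPE in batch 1 was at 10.6 FPKM without serine and glycine and 18.1 FPKM in complete medium in the labelled knockout, and at 15.4 FPKM without and 16.7 FPKM in complete medium in wild type.

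Other genes of the same programme were taken from fixed lists. Of 43 other G2/M genes tested, 20 were lower in the labelled knockout in all 4 pairs (46.5%) and 0 higher. Over all genes tested, 13.2% were lower and 8.34% higher in all 4. The 43 had a median of −0.23, and 0 were called with both media averaged, beside 0.0445% of all genes. DEPDC1 differed by −0.69 ± 0.14 (limma adjusted p = 0.3813) and HJURP, the chaperone that loads CENPA, by −0.52 ± 0.11 (limma adjusted p = 0.3849). Without serine and glycine 16 of the 43 were lower than in complete medium in all 4 pairs (37.2%, against 11.4% of all genes). TACC3, a spindle protein, differed by −0.53 ± 0.13 between media. The 15 genes of the anaphase-promoting complex, its partners and inhibitor had a genotype median of −0.0089. In all 4 pairs 3 were lower (20%) and 1 higher (6.67%), against 13.2% and 8.34% of all genes. Of the 15 genes that control the programme, 4 were lower (26.7%) and 1 higher (6.67%) in all 4 genotype pairs, against the same shares of all genes. MYBL2, which encodes B-MYB and also lies on chromosome 20, differed by 0.47 ± 0.12 (limma adjusted p = 0.3849). RBBP4, lower in all 4 pairs, differed by −0.43 ± 0.12 (limma adjusted p = 0.3895). For LIN52 the genotype difference in batch 2 minus that in batch 1 was 1.27 ± 0.21 (limma adjusted p = 0.03815), a test that called 3.91% of all genes.

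Of 9 brakes on CDK1, 2 were lower (22.2%) and 1 higher (11.1%) in the labelled knockout in all 4 pairs, against 13.2% and 8.34% of all genes. CDKN1A, which encodes the CDK inhibitor p21, had a genotype difference that was 2.62 ± 0.44 higher in batch 2 than in batch 1. This passed the test (limma adjusted p = 0.03907), which called 3.91% of all genes and takes the 2 media of a batch as replicates. CDKN1A stood in batch 2 at 89.9 FPKM in the labelled knockout and 29.9 FPKM in wild type without serine and glycine, and at 37.2 FPKM in the labelled knockout and 8.61 FPKM in wild type in complete medium. In batch 1 it stood at 75.2 FPKM in the labelled knockout and 123 FPKM in wild type without serine and glycine, and at 47.1 FPKM in the labelled knockout and 94.0 FPKM in wild type in complete medium. The label with more p21 mRNA thus differed between the batches. The part of p21 in the values of the mitotic genes was not tested. PKMYT1, a kinase that inhibits CDK1, differed by 0.51 ± 0.10 (limma adjusted p = 0.3813) and was higher in the labelled knockout in all 4 pairs. The 2 lower in all 4 were GADD45A, by −0.58 ± 0.14 (limma adjusted p = 0.3849), and WEE1, by −0.29 ± 0.13 (limma adjusted p = 0.472). The median genotype difference of the 9 was −0.0004 with both media averaged. By medium, 1 of the 9 was lower (11.1%) and 2 higher (22.2%) without serine and glycine in all 4 pairs. Over all genes the shares were 11.4% and 14.6%. The 2 higher were GADD45A, by 0.99 ± 0.14 (limma adjusted p = 0.1363), and CDKN1A, by 1.00 ± 0.58 (limma adjusted p = 0.6258). The lower one was SFN, by −0.82 ± 0.16 (limma adjusted p = 0.257). Of 18 G1/S genes, 5 were lower (27.8%) and 3 higher (16.7%) in the labelled knockout in all 4 pairs, against 13.2% and 8.34% of all genes. Without serine and glycine 11 were lower in all 4 (61.1%, against 11.4% of all genes). TYMS, thymidylate synthase, which lies within the NDC80 stretch of chromosome 18, differed by −1.26 ± 0.14 between labels (limma adjusted p = 0.1449). By batch TYMS differed by −1.37 in batch 1 and −1.15 in batch 2, beside medians of −1.37 and −0.55 over the first 11 Mb. The part of this stretch in the TYMS values was not tested.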

How the data were processed

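RNA of 8 hTERT-RPE1 libraries was sequenced, 2 in each of 4 groups. FPKM values were deposited as a separate table for each batch, normalized on its own, so comparisons stay within a batch. Per the submitters' processing notes the tools were TopHat, Cufflinks and Cuffdiff and the build hg19. The sources used here give no versions or settings. Library depth is unknown, and the FPKM of a library summed to between 2429662 and 3148153. Of this 60.5% to 65.7% fell to small RNA, rRNA and mitochondrial rRNA and tRNA genes. Differences may include a shift in that share.

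Genes with FPKM of at least 1 in at least 2 libraries were tested on log2(FPKM + 1), so changes of low genes are understated. The model, fitted with limma 3.58.1 (R 4.3.3), had a mean for each of the 4 groups, a batch block and a trended empirical Bayes prior (3 residual and 2.97 prior degrees of freedom). P-values are two-sided and adjusted by Benjamini-Hochberg over all 17994 genes, with a threshold of 0.05. A further fit held batch, genotype label, their product and medium. In it the 2 media of a batch and label serve as replicates, so its p-values do not measure the spread between experiments. The labels state that a replicate number marks 1 batch of treated cells, which gives the pairing. Deviations from group means correlated at 0.65 to 0.775 in the 12 same-batch pairs of libraries. With 2 libraries per group the deviations of batch 2 mirror those of batch 1, so its pairs repeat the batch 1 values. The tables were also normalized separately, so these values do not test the pairing. The limma p-values rest on 2 experiments, and the 2 media of a batch are not independent of each other.

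The 40 genes, the comparison lists and the tests were chosen with earlier results of these data known. Every member could be named, with statistics for the 4 smallest p-values and the 3 largest differences in each direction in a comparison. From other lists up to 4 genes with the smallest p could be named. TYMS, CDKN1A, MYBL2, RBBP4, LIN52, PKMYT1, WEE1, GADD45A, SFN, HJURP, DEPDC1 and TACC3 come from there. CKS1B and RBL1, with 2 rows each, and PECAM1, with 0, were not used. Gene types came from GENCODE 29, matched for 95.8% of tested genes. Loci are hg19 and 1-based, and promoters are RefSeq on GRCh38.p14. Alternatives tried were another pseudocount (0.1), no filter, median scaling within a batch, no replicate block, protein-coding genes only, and leaving out each library or both batch 2 libraries labelled knockout. For the medium comparisons and the interaction, a block for each batch and genotype label together was also tried. For the genotype comparisons, the median was also taken without members on chromosomes 15, 18 and 20. Like the protein-coding setting, these were not planned.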

Additional observations from a re-analysis of the deposited data

Results flagged for a closer look

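NDC80 was singled out because its genotype difference in batch 2 minus that in batch 1, 1.33 on the log2 scale, passed the limma test (adjusted p = 0.02656). That test takes the media of a batch as replicates. For the genes that follow, every pair of libraries moved one way in one batch or label and the opposite way in the other, and the difference was not tested for these unless an adjusted p is given. Its value is batch 2 minus batch 1 unless stated.

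For the genotype label, labelled knockout minus wild type, the value was −0.42 for CDC25B, 0.33 for TPX2 and −1.03 for TOP2A, whose difference missed the threshold in the fit (limma adjusted p = 0.05785). For the medium, serine/glycine-free minus complete, it was 0.35 for CCNB1, 0.45 for CDC25B, 0.31 for BUB3, 0.18 for TTK, 0.33 for TPX2, 0.78 for KIF23 and 0.56 for ECT2. In these 7 genes both labels were lower without serine and glycine in batch 1 and higher in batch 2. Over all genes tested, 30.5% were lower in both medium pairs of batch 1 and 32.6% higher in both of batch 2. For the genotype label, 34.8% were lower and 25% higher in both media in batch 1, and 34.9% and 31.8% in batch 2. The share of all genes with opposite directions in the 2 batches was not taken. CCNA2 was lower without serine and glycine in both labelled knockout pairs and higher in both wild-type pairs, with a value of −0.16 for labelled knockout minus wild type.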

How the results depend on the processing

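Under the 14 or 15 other settings of each comparison within or across media, limma called 0 of the 40 genes, and the median genotype difference with both media averaged stayed between −0.43 and −0.24. Without the replicate block the call count was 0, as with the block, and no call on a member in those comparisons changed. The median cannot change in that setting, since each group has 1 library from each batch. Without both batch 2 libraries labelled knockout, the median was −0.28 for the medium in the labelled knockout, −0.11 for genotype in complete medium and −0.22 for the interaction. Leaving out each library in turn gave medians of −0.17 to 0.071 for the medium in wild type, positive without the batch 1 wild-type serine/glycine-free library, and −0.30 to −0.097 in the labelled knockout. It gave −0.40 to −0.12 for genotype in complete medium, −0.30 to 0.015 for the interaction, whose sign turns without the batch 2 wild-type serine/glycine-free library, and −0.34 to −0.12 for genotype by batch. For genotype by batch, 0 members were called without any 1 library and 0 with no filter, at which NDC80 is lost. With protein-coding genes only, an alternative chosen after the data were seen, 5 were called (12.5%, against 10.3% of the 13080 genes then tested), TOP2A, NUSAP1 and CCNB2 among them. Fewer genes are then tested, and the cause of the other changes was not tested. Over all genes the count called also moved, from 37 to 1350 for genotype by batch, 0 to 39 for the medium with genotypes averaged, 1 to 19 for the medium in wild type, 0 to 13 for the medium in the labelled knockout, 0 to 14 for each genotype comparison within a medium, 0 to 7 for genotype with media averaged and 0 to 11 for the interaction. With 3 residual degrees of freedom and 2 experiments, small differences could not be detected. In the promoter window of 200 bases before the start alone, CHR was in 51.2% of member windows and 11.1% of all windows.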
